A study of Mus musculus with 15 samples.

Results

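Ddah1, Nox4, Ildr2, Abca8a and Olig1 are 5 genes outside the cytochrome P450 family that were among the most strongly lowered in mouse liver after repeated injection of the thyroid hormone T3. They were chosen by that difference itself, so the comparison of chronic T3 with its baseline is given for them as a description, with no test. Each gene was represented by 1 probe of the array, and all 5 probes met the requirement of a detection p-value under 0.01 on at least 3 of the 15 arrays. They are 5 of 8976 genes measured in this way. The probes of Ddah1, Nox4, Ildr2 and Abca8a were detected on all 15 arrays and that of Olig1, nearest to the detection limit, on 12. No probe of a member fell outside it.

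All livers came from male C57BL/6 mice, 8 weeks old by the labels, with free access to food and water. Liothyronine (L-T3) was injected intraperitoneally at 20 µg per 100 g body weight. The acute T3 group was killed 6 h after 1 injection, the chronic T3 group 6 h after a course of 14 daily injections, and the T3 withdrawal group 10 days after the 14th. The work was done as 2 animal experiments, each with its own untreated baseline: acute T3 belongs with baseline A, and chronic T3 and T3 withdrawal with baseline B. No group is described as having received vehicle injections, so hormone and injection cannot be told apart. Each of the 5 groups had 3 arrays, and nothing states that these are separate mice, so errors measure the spread between samples. In whole liver, fewer cells of a type and less RNA per cell cannot be told apart.

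Thyroid hormone acts mainly through nuclear receptors that sit on DNA and switch target genes up or down when T3 binds, and the liver is one of its main targets. The 5 genes work in different systems. Ddah1 encodes dimethylarginine dimethylaminohydrolase, which breaks down asymmetric dimethylarginine, an inhibitor of nitric oxide synthases. Nox4 is the catalytic subunit of an NADPH oxidase that mainly releases hydrogen peroxide. Ildr2 belongs with Lsr and Ildr1 to the angulins, immunoglobulin-like membrane proteins of which some sit where 3 cells meet. Abca8a is a lipid transporter of the ABCA family and lies in a row of related ABCA genes. Olig1 is a basic helix-loop-helix (bHLH) transcription factor known for its part in making oligodendrocytes, the myelin-forming cells of the brain.

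The promoters of 4 members are shown because these genes stand together in the same comparison, and that of Abca9 because this gene lies next to Abca8a and was lower with it. Each run holds 250 bases before and 50 after a start site listed for the gene (build GRCm38.p6), 5′ to 3′ on the gene's strand. Capitals mark the nuclear receptor core motif. For Nox4 and Abca8a the whole run lies inside the RefSeq gene bounds (chr7:87244430-87398710 and chr11:110025634-110097580). The start sites used for these genes are therefore not the outermost 5′ ends, and motif counts hold for the runs shown only. Ddah1 is read from chr3:145758442-145758741 on the plus strand, Nox4 from chr7:87246399-87246698 on the plus strand, Ildr2 from chr1:166253889-166254188 on the plus strand, Abca8a from chr11:110095888-110096187 on the minus strand and Abca9 from chr11:110168104-110168403 on the minus strand.
Ddah1: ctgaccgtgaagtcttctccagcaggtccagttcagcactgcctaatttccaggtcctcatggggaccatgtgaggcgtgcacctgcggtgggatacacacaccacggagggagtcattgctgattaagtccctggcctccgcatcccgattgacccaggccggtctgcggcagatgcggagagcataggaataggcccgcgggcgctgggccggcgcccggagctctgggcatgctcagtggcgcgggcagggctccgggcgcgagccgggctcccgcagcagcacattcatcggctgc
Nox4: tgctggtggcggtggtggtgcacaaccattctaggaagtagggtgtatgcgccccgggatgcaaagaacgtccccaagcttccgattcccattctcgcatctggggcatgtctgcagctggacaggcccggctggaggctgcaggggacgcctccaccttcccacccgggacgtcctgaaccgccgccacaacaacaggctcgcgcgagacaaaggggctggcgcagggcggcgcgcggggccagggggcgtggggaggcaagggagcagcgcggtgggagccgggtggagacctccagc
Ildr2: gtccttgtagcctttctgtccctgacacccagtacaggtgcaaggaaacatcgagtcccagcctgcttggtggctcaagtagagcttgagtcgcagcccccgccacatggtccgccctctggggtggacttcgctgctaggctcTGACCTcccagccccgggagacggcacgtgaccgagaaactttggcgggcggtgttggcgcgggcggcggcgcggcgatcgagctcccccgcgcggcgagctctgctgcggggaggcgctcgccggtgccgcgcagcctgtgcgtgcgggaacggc
Abca8a: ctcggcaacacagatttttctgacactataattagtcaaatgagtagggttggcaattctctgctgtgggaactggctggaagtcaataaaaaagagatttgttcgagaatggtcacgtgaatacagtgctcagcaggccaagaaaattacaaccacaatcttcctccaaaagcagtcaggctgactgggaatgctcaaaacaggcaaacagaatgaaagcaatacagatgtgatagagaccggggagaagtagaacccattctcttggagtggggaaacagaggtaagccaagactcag
Abca9: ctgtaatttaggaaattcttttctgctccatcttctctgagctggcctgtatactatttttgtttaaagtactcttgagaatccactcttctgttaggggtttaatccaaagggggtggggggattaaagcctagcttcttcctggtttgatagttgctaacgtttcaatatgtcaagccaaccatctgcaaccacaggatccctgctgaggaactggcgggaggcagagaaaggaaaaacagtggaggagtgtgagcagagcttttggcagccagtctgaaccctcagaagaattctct
The motif AGGTCA, searched on both strands, occurred in 1 of the 4 member promoters, that of Ildr2, 106 bases before the start site on the minus strand, where it reads TGACCT. It occurred in 16.3% of the 32851 promoters of the same length that were searched, a set that leaves out those of 1 chromosome. The direct repeat of AGGTCA with 4 bases between, the classical arrangement of a thyroid hormone response element, was found in 0.0152% of promoters and in 0 of these 4. The TATA box letters TATAAA, on either strand, were found in 13.6% of promoters and in 0 of the 4. The promoters of Ddah1, Nox4 and Ildr2 were rich in G and C (65.7%, 68.3% and 69% of bases), and that of Abca8a was not (44.3%), against a median of 52.7% over the promoters searched.

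Across the series, mean raw signal per array was 435 to 697 and 11049 to 14679 probes were detected, with chronic T3 replicates 2 and 3 the dimmest (438 and 435). The labelled tissue was checked by its markers, and 16 of 16 hepatocyte markers were measured, with Alb, Apoa1 and Ttr detected on all 15 arrays. Of 2 established T3 targets, Thrsp, a lipogenic regulator, rose by 3.30 ± 0.32 on the log2 scale in acute T3 (adjusted p = 0.000442, limma) and by 1.03 ± 0.32 in chronic T3 (adjusted p = 0.0378), there with overlapping arrays and 0.24 on its other probe (adjusted p over all probes = 0.688). Its mean level in baseline B exceeded that of baseline A by 3.09 ± 0.32. Dio1, a deiodinase, rose by 1.44 ± 0.27 in acute (adjusted p = 0.0176) and 1.54 ± 0.27 in chronic T3 (adjusted p = 0.00171). Levels below are background-corrected, quantile-normalized signals in log2, given per array in the order of replicates 1, 2 and 3. A difference is that of 2 group means, in log2, ± its standard error from 1 limma fit of all arrays (n = 3 per group), and a gene rose or fell where its p-value, adjusted by Benjamini-Hochberg over all 8976 genes, was under 0.05.

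**Figure D1:**
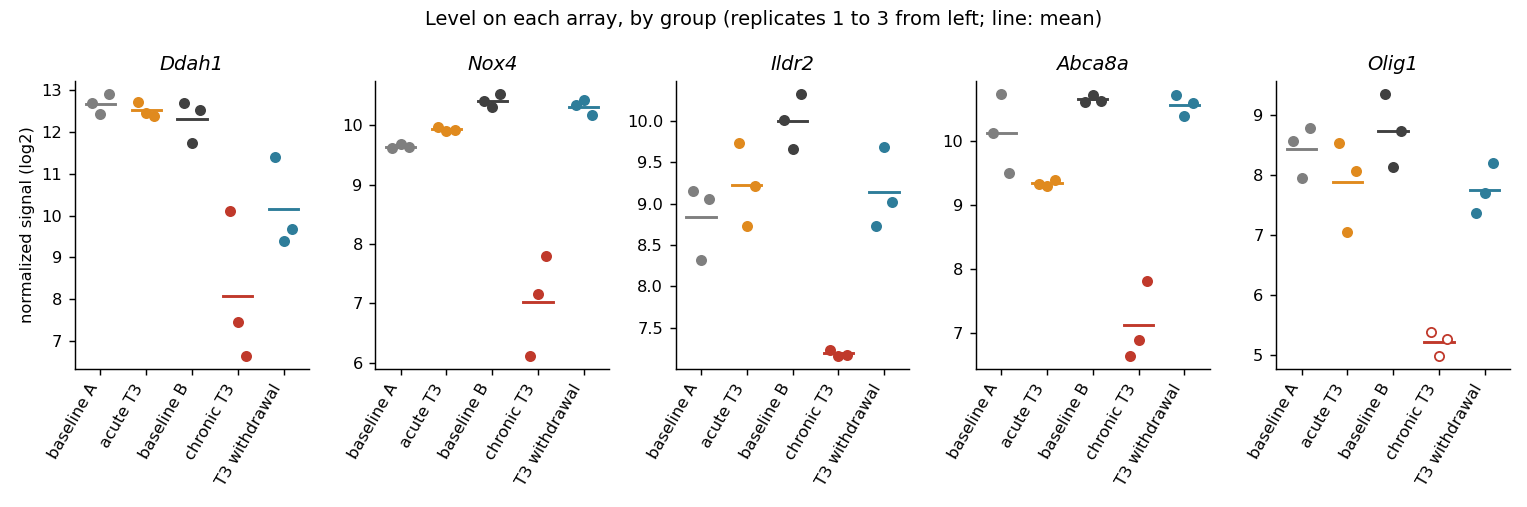
Normalized signal (log2, vertical axis) of the 5 genes on each of 15 arrays in 5 groups, each panel with its own scale; points are replicates 1 to 3 from left, lines are group means, and open points are arrays on which the probe was not detected. All 5 genes had their 3 chronic T3 arrays below their 3 baseline B arrays, and Olig1 was not detected on any of these 3 chronic T3 arrays.

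Ddah1 had the largest difference of the members and the widest spread. Its level was 12.68, 12.42 and 12.89 in baseline A, 12.70, 12.43 and 12.38 in acute T3, and 12.69, 11.73 and 12.51 in baseline B. It was 10.11, 7.47 and 6.66 in chronic T3 and 11.39, 9.39 and 9.69 in T3 withdrawal. The 3 untreated or acute groups overlapped, all chronic T3 arrays lay below them, and the withdrawal arrays lay below every baseline B array while overlapping those of chronic T3. The mean was 18.8-fold lower in chronic T3 than in baseline B (-4.23 ± 0.70), the 6th largest reduction of the 8976 genes. Chronic T3 replicate 1 stood apart, and replicate 3 was close to the detection limit. The difference was -5.27 without replicate 1 and -2.20 with replicate 1 as the only chronic T3 array, the 2 dimmest arrays of the series left out.

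Nox4 was 10.41, 10.30 and 10.52 in baseline B and 6.12, 7.16 and 7.80 in chronic T3. It returned to 10.34, 10.43 and 10.16 in T3 withdrawal. Baseline A stood at 9.61, 9.68 and 9.63 and acute T3 at 9.97, 9.90 and 9.92. The chronic T3 arrays lay below all others, and among them the order was the opposite of that for Ddah1, with replicate 1 lowest. The mean in chronic T3 was 10.4-fold below baseline B (-3.38 ± 0.29), the 13th largest reduction, and the 3 withdrawal arrays overlapped baseline B.

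Ildr2 was 10.01, 9.66 and 10.32 in baseline B, 7.24, 7.17 and 7.17 in chronic T3 and 8.72, 9.68 and 9.03 in T3 withdrawal. In baseline A it was 9.15, 8.32 and 9.06, and in acute T3 9.73, 8.73 and 9.21. Its chronic T3 arrays were the closest together of any member detected there (SD 0.04), and they lay below every other array. The mean was 6.98-fold lower than in baseline B (-2.80 ± 0.30), which placed it 21st. The odorant-binding protein gene Obp2a (-2.83), 20th, and the acyl-CoA thioesterase Acot3 (-2.78), 22nd, were its neighbours in that order.

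Abca8a was 10.62, 10.72 and 10.62 in baseline B and 6.66, 6.90 and 7.82 in chronic T3. It stood at 10.71, 10.39 and 10.59 in T3 withdrawal, and at 10.13, 10.73 and 9.49 in baseline A against 9.33, 9.30 and 9.39 in acute T3. The chronic T3 arrays were again the lowest, the withdrawal and baseline B arrays overlapped, and the acute T3 arrays lay just below those of baseline A. The mean in chronic T3 was 11.5-fold below baseline B (-3.53 ± 0.30), the 10th largest reduction.

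Olig1 was the dimmest of the 5 probes. It was 9.34, 8.13 and 8.72 in baseline B, 7.37, 7.70 and 8.19 in T3 withdrawal, 8.56, 7.94 and 8.78 in baseline A, and 8.54, 7.04 and 8.06 in acute T3. It was not well above background on any chronic T3 array (5.38, 4.99 and 5.27), so that its level there is only bounded, at least 6.05-fold below baseline B, for a measured difference of -3.52 ± 0.38, the 11th largest. Of 11 oligodendrocyte and glial markers, 2 were detected on enough arrays to be measured, Cnp and the water channel Aqp4. Olig2, Sox10, Mbp and Mog were detected on 0 arrays. In chronic T3 Aqp4 fell (-1.82 ± 0.47, adjusted p = 0.0153) and Cnp had a value of -0.51 ± 0.23 (adjusted p = 0.132). Aqp4 was detected on 10 of 15 arrays, and not on every array of chronic T3 or of baseline B, so its difference is near the detection limit. The summed signal of both genes was 93.6 to 143 in chronic T3 against 162 to 443 in baseline B.

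All 5 members had every chronic T3 array below every baseline B array, which 16.4% of all genes did, and genes that fell at the adjusted threshold were 10.5% of those measured. Both shares are given for scale only, since this comparison chose the members. The authors' own normalized intensities, which carry no visible background subtraction, gave smaller differences for each, namely -2.10 for Olig1, -2.24 for Ildr2, -2.69 for Nox4, -2.88 for Abca8a and -3.72 for Ddah1.

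**Figure D2:**
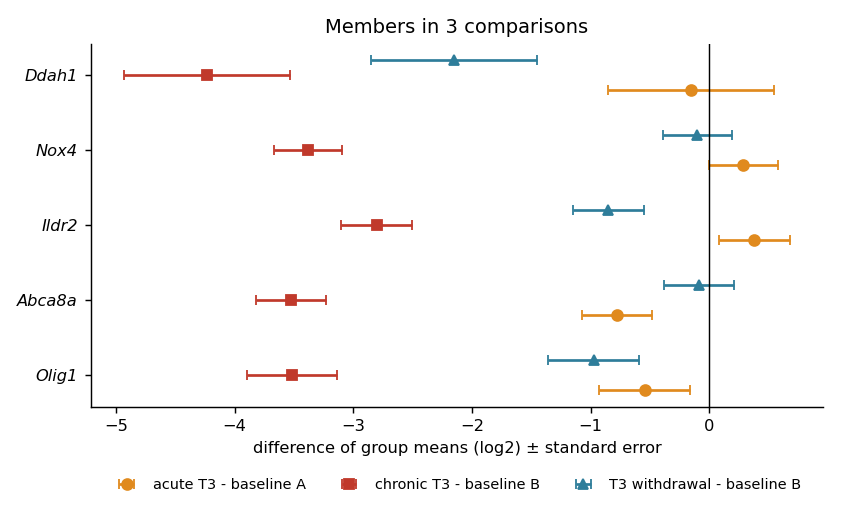
Difference of group means (log2, horizontal axis) ± standard error for the 5 genes in 3 comparisons, n = 3 arrays per group. Chronic T3 minus baseline B lies between -4.23 (Ddah1) and -2.80 (Ildr2), acute T3 minus baseline A between -0.78 (Abca8a) and 0.38 (Ildr2), and T3 withdrawal minus baseline B between -2.15 (Ddah1) and -0.09 (Abca8a).

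Acute T3 against baseline A asks whether a single dose moved these genes within hours. The members were chosen on another difference, that of chronic T3. They were chosen with earlier results of these data known, and the detection requirement counted all 15 arrays. None of the 5 passed: limma called 0 of 5 members, against 2.12% of all genes, and 1 of the 5 had an unadjusted p under 0.05. That gene was Abca8a, whose acute T3 mean was 1.72-fold lower (-0.78 ± 0.30, adjusted p = 0.223). Its acute T3 arrays lay below all baseline A arrays, and those of Nox4 above them (0.29 ± 0.29, adjusted p = 0.726), a lack of overlap found in 21.9% of all genes. The Abca8a difference was -0.47 without baseline A replicate 2 and -1.09 without replicate 3, and was not called in either case. The values of Ddah1 (-0.16 ± 0.70, adjusted p = 0.959), Ildr2 (0.38 ± 0.30, adjusted p = 0.631) and Olig1 (-0.55 ± 0.38, adjusted p = 0.572) came from overlapping groups. The 95% intervals still allowed sizeable acute differences, from -1.67 to 1.36 for Ddah1, -0.34 to 0.91 for Nox4, -0.26 to 1.02 for Ildr2, -1.42 to -0.14 for Abca8a and -1.37 to 0.27 for Olig1. These widths and p-values use a spread pooled over all groups, including the chronic T3 arrays on which the members were chosen. For Ddah1 the SD was 0.24 in baseline A, 0.17 in acute T3 and 1.80 in chronic T3. For Nox4 it was 0.03, 0.04 and 0.85 in the same groups. With the chronic T3 group left out of the fit, limma also called 0 of 5 members. The 2 animal experiments had different baselines, and the acute and chronic effects were not tested against each other.

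The untreated baselines themselves differed for some members. Nox4 and Ildr2 had all 3 baseline B arrays above all 3 of baseline A, as did 10.9% of all genes, by 0.77 ± 0.29 and 1.15 ± 0.30. Abca8a (0.53 ± 0.30), Olig1 (0.31 ± 0.38) and Ddah1 (-0.35 ± 0.70) overlapped. For each member the chronic T3 arrays also lay below those of baseline A.

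After 10 days without T3 the members had come back to different degrees. The share of the log2 difference between chronic T3 and baseline B that the withdrawal mean had regained was 97.5% for Abca8a, 97.0% for Nox4, 72.3% for Olig1, 69.6% for Ildr2 and 49.1% for Ddah1. For Olig1 it rests on chronic T3 levels under the detection limit. The means of Abca8a and Nox4 stood at -0.09 ± 0.30 and -0.10 ± 0.29 from baseline B, or 94.0% and 93.3% of its linear level; 1 withdrawal array of Abca8a and 2 of Nox4 lay inside the baseline B range, and the others below it. Ildr2 (-0.85 ± 0.30) stood at 55.4% and Olig1 (-0.98 ± 0.38) at 50.9% of that level, each with 1 withdrawal array inside the baseline B range and 2 below it.

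Ddah1 stood at 22.5% of its baseline B level after withdrawal (-2.15 ± 0.70), from 5.32% in chronic T3. Its 3 withdrawal arrays had regained 78.3%, 31.1% and 38.0% of the log2 difference. It was the 1 member of 5 with every withdrawal array below every baseline B array, as in 5.37% of all genes, and the other 4 had every withdrawal array above every chronic T3 array, as in 17.6%. The withdrawal mean of Ddah1 was 2.08 ± 0.70 above that of chronic T3, but 1.37 without chronic T3 replicate 3, 1.46 without T3 withdrawal replicate 1, 3.11 without chronic T3 replicate 1, and 0.05 above that replicate alone. At the adjusted threshold 1 gene of the 8976, 0.0111%, differed between T3 withdrawal and baseline B. Members were not tested here, because these comparisons share arrays with the one that chose them.

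**Figure D3:**
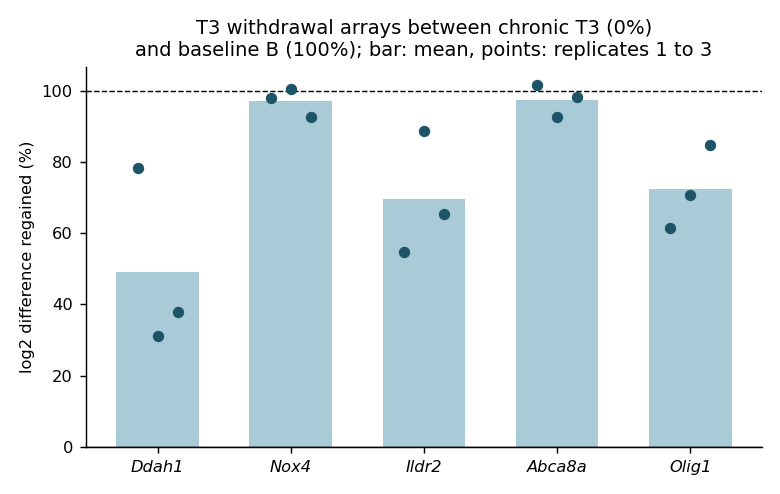
Share of the log2 difference between chronic T3 (0%) and baseline B (100%, dashed line) regained in T3 withdrawal; bars are means and points are withdrawal replicates 1 to 3. Abca8a (97.5%) and Nox4 (97.0%) stand near the line, Olig1 (72.3%), Ildr2 (69.6%) and Ddah1 (49.1%) below it, with the Ddah1 arrays spread from 31.1% to 78.3%.

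The other genes of 5 lists, 1 for the system of each member, were then compared in chronic T3 and baseline B. Of 63 measured, 8 rose (12.7%, against 12.4% of all genes), 9 fell (14.3%, against 10.5%) and 46 did not pass, and their median difference was -0.03 beside 0.03 over all genes. Of the 17 called, 8 kept the call with each of the 15 arrays left out in turn: Gch1, Pts, Cyba, Abca3, Abca6, Abca9, Srebf1 and Srebf2. The count was 9 without chronic T3 replicate 2 and 11 without baseline B replicate 1. In acute T3 1 of the 63 was called, and in T3 withdrawal against baseline B 0 of 63 (limma, with 1 at an unadjusted p under 0.05).

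Beside Ddah1, 2 of 18 measured genes of dimethylarginine and nitric oxide metabolism rose, 3 fell and 13 did not pass. The 2 that kept the call with each array left out make tetrahydrobiopterin, the cofactor of nitric oxide synthases. Gch1, the first enzyme of its synthesis, rose by 0.61 ± 0.12 (adjusted p = 0.00373; 0.45 and adjusted p = 0.187 under median scaling), and also rose in acute T3, by 1.01 ± 0.12 (adjusted p = 0.00119). The mean of Gch1 in baseline B exceeded that of baseline A by 0.51 ± 0.12 (adjusted p = 0.0243). Pts, which acts after Gch1, fell by 0.80 on the log2 scale (adjusted p = 0.000303). Qdpr, which recycles that cofactor (-0.45 ± 0.13, adjusted p = 0.0224), Agxt2, the mitochondrial enzyme that also degrades dimethylarginine (-0.77 ± 0.24, adjusted p = 0.0358), and the arginine methyltransferase Prmt7 (0.50 ± 0.13, adjusted p = 0.0135) were no longer called when chronic T3 replicate 2 was left out, or baseline B replicate 1 (adjusted p 0.0535 to 0.116). The dimmer probes of Prmt7 and Agxt2 did not pass (for Agxt2 -0.59 and -0.72, adjusted p over all probes 0.155 and 0.0647). Qdpr and Agxt2 also lost the call without chronic T3 replicate 1 (adjusted p 0.0647 and 0.122), and Agxt2 without baseline B replicates 2 or 3 (adjusted p 0.0888 and 0.0849). Ddah2, the other dimethylaminohydrolase, had a value of -0.11 ± 0.19 (adjusted p = 0.72), and turned positive under median scaling and without baseline B replicate 1.

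Of the NADPH oxidase list 3 of 6 measured genes rose, 0 fell and 3 did not pass, in the direction opposite to Nox4. Cyba, the p22phox subunit that Nox4 and other oxidases need, rose by 1.77 ± 0.27 (3.42-fold, adjusted p = 0.000606). The cytosolic subunits of the phagocyte oxidase followed: Ncf4 rose (at least 1.89-fold, adjusted p = 0.015) and so did the small GTPase Rac2 (at least 1.45-fold, adjusted p = 0.0164), each not well above background in baseline B and Rac2 detected on 2 of 3 chronic T3 arrays. Both calls ended on leaving out replicate 1 or 2 of chronic T3, or baseline B replicate 3 (adjusted p 0.0519 to 0.0701). The organizer subunit Noxo1 had a value of -0.28 ± 0.27 (adjusted p = 0.498), and the catalytic subunits Nox1 and Cybb were detected on 0 arrays. On the same arrays all 13 measured markers of macrophages and Kupffer cells rose (13 of 15 listed; median 1.69 beside 0.03 over all genes), and their summed signal was 15133 to 25965 in chronic T3 against 5126 to 7590 in baseline B and 4887 to 5480 in T3 withdrawal. Of these markers Fcgr1 was detected on 5 of 15 arrays, the 3 of chronic T3 among them. It met the detection requirement only through that group, which favoured its rise. Adgre1 (1.56 ± 0.29, adjusted p = 0.00242), Clec4f (1.55 ± 0.25, adjusted p = 0.000907) and Csf1r (1.19 ± 0.17, adjusted p = 0.000448), defining markers of these cells, were detected on all 15 arrays, while Cd68 and Cd5l did not meet the detection requirement. The part of these cells in the rise of the oxidase subunits or in the lower level of the members was not tested. Of the 16 hepatocyte markers (median -0.05), Alb (-1.43 ± 0.15, adjusted p = 4.59e-05) and Fgb (-0.90 ± 0.24, adjusted p = 0.0163) fell and 0 rose. The Fgb probe was detected on only 4 of 15 arrays, so its value is near background. Fga (-0.19, adjusted p = 0.377) and Fgg (0.0008, adjusted p = 0.998), each detected on 15 arrays, did not pass. The summed signal of the 16 markers was 476035 to 481868 in chronic T3 against 492308 to 501327 in baseline B. Of 12 measured markers of pericentral hepatocytes, those around the central vein, 5 fell, with log2 differences of -2.41 for Oat, -1.96 for Slc1a2, -1.90 for Rgn, -1.56 for Cyp1a2 and -0.67 for Cyp2e1 (adjusted p 9.77e-06 to 0.0336). Another, Cyp7a1, rose by 1.87 ± 0.33 (adjusted p = 0.00164), and the list's summed signal was 50850 to 85505 in chronic T3 against 91940 to 108685 in baseline B. The remaining 6 did not pass: Glul (0.11), Axin2 (0.17), Tbx3 (0.13), Gulo (0.29), Lgr5 (-0.25) and Aldh3a2 (-0.51). Of 9 measured markers of periportal hepatocytes, those around the portal vein, 1 rose, 1 fell and 7 did not pass. Cdh1 rose (0.69 ± 0.21, adjusted p = 0.0301), and the gene that fell was Alb, already counted among the 16 hepatocyte markers. The part of these hepatocyte differences in the lower level of the members was not tested.

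**Figure D4:**
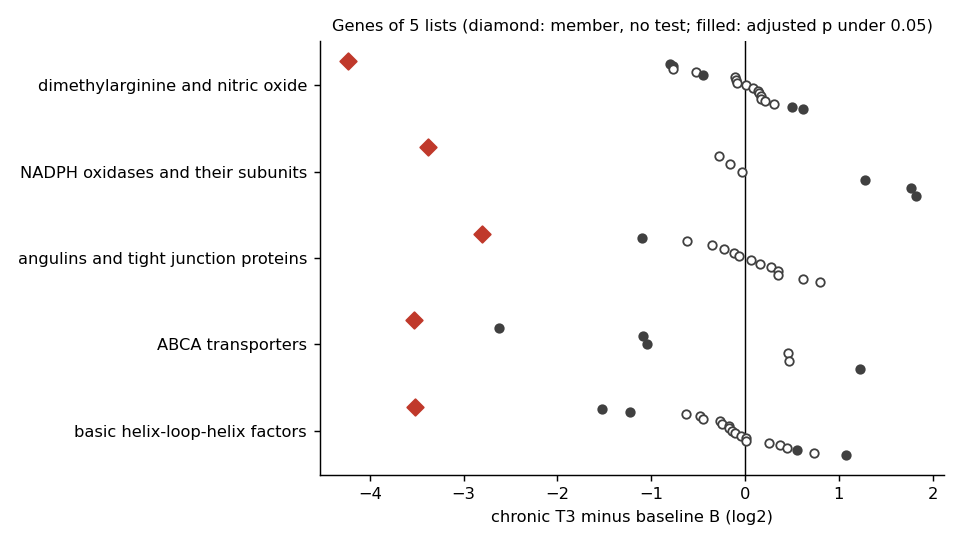
Chronic T3 minus baseline B (log2, horizontal axis) for the measured genes of 5 lists (vertical axis); diamonds are the 5 members, shown with no test, filled circles the 17 other genes with an adjusted p under 0.05 and open circles the other 46. Each member lies left of all other genes of its list.

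Beside Ildr2, 0 of 13 measured angulin and tight junction genes rose, 1 fell and 12 did not pass. The gene that fell was Ocln, occludin, a membrane protein of tight junctions (-1.09 ± 0.28, adjusted p = 0.0145), detected on 1 of 3 chronic T3 arrays, and its call ended on leaving out replicate 2 of chronic T3 (adjusted p = 0.0589) or of baseline B (adjusted p = 0.0551). The other angulins did not pass: Lsr, the lipolysis-stimulated lipoprotein receptor, had a value of -0.07 ± 0.50 (adjusted p = 0.936), positive in 4 of the alternatives, and Ildr1 one of -0.22 ± 0.23 (adjusted p = 0.524). The claudins Cldn2 (-0.62 ± 0.27, adjusted p = 0.113), Cldn12 (0.28 ± 0.12, adjusted p = 0.129) and Cldn14 (0.79 ± 0.29, adjusted p = 0.0615), barrier and pore proteins of the junction, did not pass either, although another probe of Cldn2 did (-0.88 ± 0.18, adjusted p over all probes = 0.00444).

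Of 6 other measured ABCA transporters 1 rose, 3 fell and 2 did not pass. The 3 that fell are neighbours of Abca8a on chromosome 11, in the order Abca8b, Abca8a, Abca9, Abca6 and Abca5, of which Abca5 was not detected on enough arrays. Abca9 was 8.09, 8.40 and 7.95 in baseline B, 5.55, 4.87 and 6.16 in chronic T3 (not well above background on any), and 8.05, 7.77 and 7.82 in T3 withdrawal. It thus fell at least 4.03-fold (adjusted p = 0.000177) and overlapped baseline B again after withdrawal (-0.26 ± 0.33). Abca6 fell by 1.05 ± 0.14 on the log2 scale (adjusted p = 0.000333), and by withdrawal stood at -0.20 ± 0.14. Abca8b fell by 1.08 ± 0.31 (adjusted p = 0.0261), with chronic T3 arrays overlapping those of baseline B. Its call ended on leaving out any of 4 arrays, namely replicates 2 and 3 of chronic T3 and 1 and 3 of baseline B (adjusted p 0.0725 to 0.103).

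Probes of these related genes may read each other's transcripts, so the share of each gene in the signal is uncertain, and probe sequences were not compared here. Probes of 1 gene also differed. Another probe of Abca9 had a value of -2.51 ± 0.28, and the last one 0.04 ± 0.31 (adjusted p over all probes = 0.936). The dimmest probe of Abca8b had -0.42 ± 0.42 (adjusted p over all probes = 0.533), while another passed at -0.91 ± 0.21 (adjusted p over all probes = 0.0107). In acute T3 Abca8b (-1.14 ± 0.31, adjusted p = 0.0832), Abca9 (-0.53 ± 0.33, adjusted p = 0.512) and Abca6 (-0.07 ± 0.14, adjusted p = 0.895) did not pass. The remaining gene of the list that changed, Abca3, a phospholipid transporter known from lung surfactant, lies outside this row and rose by 1.22 ± 0.12 (adjusted p = 2.03e-05).

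**Figure D5:**
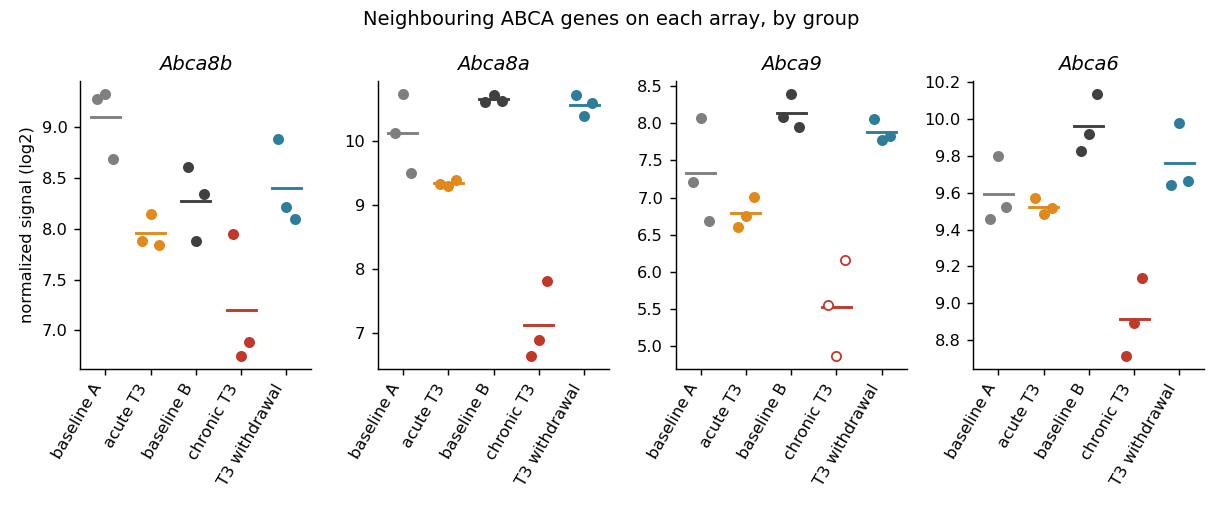
Normalized signal (log2, vertical axis) of 4 adjacent ABCA genes of chromosome 11 on each array in 5 groups, each panel with its own scale; points are replicates 1 to 3 from left, lines are group means, and open points mark arrays without detection. Chronic T3 minus baseline B was -1.08 for Abca8b, -3.53 for Abca8a, -2.62 for Abca9 and -1.05 for Abca6, and chronic T3 and baseline B arrays overlapped for Abca8b alone of these 4.

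Beside Olig1, 2 of 20 measured bHLH factors and their partners rose, 2 fell and 16 did not pass. Srebf1, which drives fatty acid synthesis genes, fell by 1.23 ± 0.19 on the log2 scale (adjusted p = 0.000759). Its mean level was 9.67 in baseline B, 8.44 in chronic T3 and 8.67 in baseline A. The 2 untreated baselines thus differed by 0.99 ± 0.19 (adjusted p = 0.0118). The paralog Srebf2, which drives cholesterol synthesis genes, rose by 1.08 ± 0.20 (adjusted p = 0.00232). Its difference was 0.51 with replicate 1 as the only chronic T3 array, a value given as a size and not as a call. Id2, an inhibitor of bHLH factors, fell (-1.52 ± 0.44, adjusted p = 0.0267), a call that ended on leaving out replicate 2 or 3 of chronic T3, or baseline B replicate 1 (adjusted p 0.0585 to 0.107). Its other probes passed in chronic T3, at -1.05 ± 0.19 and -1.64 ± 0.30 (adjusted p over all probes 0.00227 and 0.00237). The first of these also passed in acute T3 (-0.92, adjusted p over all probes = 0.0331), while the second (0.269) and the probe used (0.202) did not. Tcf4, a broadly expressed partner of tissue-specific bHLH factors, rose (0.55 ± 0.18, adjusted p = 0.0405), a call lost on leaving out 10 of the 15 arrays in turn (adjusted p 0.0511 to 0.119), chronic T3 replicates 1 and 2 and all 3 of baseline B among them.

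The measured genes nearest to the other members on the chromosome did not share a direction. They lay 30.0 to 2638 kilobases (kb) away, against 3.17 to 77.1 kb for the ABCA genes around Abca8a. Of the 2 nearest measured genes on each side, Ccn1, a matricellular protein gene beside Ddah1, fell by 1.87 ± 0.40 on the log2 scale (adjusted p = 0.00525) and was -1.67 in T3 withdrawal against baseline B (chronic adjusted p = 0.0924 without the 2 dimmest arrays), while the other 3 around Ddah1 did not pass. Around Ildr2, Creg1 (-0.94 ± 0.26, adjusted p = 0.0202) and Pogk (-0.77 ± 0.20, adjusted p = 0.0142) fell and Rcsd1 rose (1.02 ± 0.20, adjusted p = 0.00305). Ctsc, a lysosomal protease gene 879 kb from Nox4, rose by 0.91 ± 0.22 (adjusted p = 0.00975), and Mrap, 520 kb from Olig1, by 0.46 ± 0.15 (adjusted p = 0.0473). The call of Ctsc ended under median scaling (adjusted p = 0.1) and in a fit of only the 2 groups compared (adjusted p = 0.0529). The call of Creg1 ended on leaving out replicate 2 of chronic T3, or 1 or 3 of baseline B (adjusted p 0.0558 to 0.085), that of Pogk without baseline B replicate 1 (adjusted p = 0.0579), and that of Mrap without any 1 of the chronic T3 or baseline B arrays among others (adjusted p 0.0512 to 0.157).

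Across the 15 arrays the members' levels correlated with each other at Pearson r of 0.59 (Ddah1 and Abca8a) to 0.94 (Nox4 and Abca8a). This is a description only, since all were chosen for a low level on the same 3 chronic T3 arrays. With group means removed, r ran from -0.77 between Ddah1 and Nox4 to 0.68 between Ildr2 and Olig1. The gene most like Ddah1 over the 15 arrays was the carboxylesterase Ces2a (r = 0.96), followed by the glutathione transferase Gsta4 (0.92). Nox4 was most like the acyl-CoA synthetase Acsm5 (0.98) and the synaptotagmin Syt1 (0.96), Ildr2 like the carboxylesterase Ces1g (0.96) and Gatb (0.92), and Olig1 like the oxygen-sensing prolyl hydroxylase Egln3 (0.97) and the glyoxalase Glo1 (0.95). Abca8a was most like the DNA replication factor Mcm10 (0.97) and, next, its neighbour Abca9 (0.96). Ces2a resembled Ddah1 in its incomplete return, at -1.09 in chronic T3 and -0.46 in T3 withdrawal against baseline B, and Acsm5 resembled Nox4 at -1.09 and -0.01. These correlations describe 15 arrays of 5 groups that share their treatment and array signal, and genes were picked as the highest of all those measured.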

How the data were processed

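Total RNA of mouse liver was labelled with biotin and read on Illumina arrays of 45281 probes, per the labels' protocols. The deposited file gives for each probe and array an intensity that is not normalized and a detection p-value, per the file headers. A table of intensity values normalized by the authors was used as an alternative. Partek 6.6 is named in the submitters' processing notes, with no role, and the scanner software is not given in the sources used here.

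Signals were corrected for background through the detection p-values, normalized between arrays by quantiles and put on the log2 scale (neqc, offset 16, limma 3.58.1, R 4.3.3). Probes with a detection p under 0.01 on at least 3 of 15 arrays were kept (15361), and each gene was read from its brightest probe (8976 genes). Gene names came from the platform's probe table: 34885 probes had 1 gene, 18 several and 10378 none. Where a gene was detected on none of the 3 arrays of a group, its fold was bounded with the lowest signal that counted as detected there. A single limma model held the 15 arrays, with 1 mean for each group and 10 residual degrees of freedom (13.1 moderated), with 2-sided tests and Benjamini-Hochberg adjustment. With 3 against 3 arrays an exact permutation p is 0.1 at the lowest, and none was computed. The number of arrays limits the precision. The steps were tested on simulated data.

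The members and gene lists were chosen with earlier results of these data known. Genes were named by rule: the members and their close paralogs, the 4 other genes with the lowest adjusted p in each list, neighbours in RefSeq (GRCm38.p6), the genes most like each member, and Thrsp and Dio1. Abca2, Abca7 and other list genes count without being named. Obp2a, Acot3, the remaining called list genes and the cell type markers were named after their values were seen. Same-numbered arrays were not treated as paired where a pair's residuals correlated at 0.1 or less (lowest r -0.281 in the acute and -0.198 in the chronic comparison, and 0.00529 and -0.0451 for T3 withdrawal against baseline B and chronic T3). Between the baselines every pair was over that limit (0.126, 0.25 and 0.195). The baselines belong to separate animal experiments, so these values do not show that same-numbered arrays are pairs there. A replicate block cannot alter a difference of group means, so it could not check the members' differences between the baselines. Those differences were not tested, and their errors come from the fit without that block. As alternatives, the background correction, scaling, detection filter, probe summary and variance moderation were changed, arrays were weighted, a replicate block was added, the normalized table of the authors was used, and groups or single arrays were left out.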

Additional observations from a re-analysis of the deposited data

How the results depend on the processing

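No member was called in acute T3 under any of 29 alternatives (0 of 5, or 0 of 4 where detection on all 15 arrays was required and Olig1 was not measured; adjusted p 0.0762 at the lowest, for Abca8a). The members' chronic differences ran from -5.27 to -2.20 for Ddah1 over the 27 alternatives (26 for Olig1, not measured where detection on all 15 arrays was required). All kept their direction, but this is no test, since the members were chosen by this very difference. Some alternatives, such as the variance moderation and the replicate block, cannot alter a difference of group means. Leaving out both dim chronic T3 arrays, chosen after seeing the data, gave -4.32 for Nox4 and -4.02 for Abca8a. The 17 other list genes called in chronic T3 became 10 under median scaling, 8 in a fit of only the 2 groups compared, 8 at an adjusted p under 0.01, 11 without both dim arrays, 16 with the replicate block, and 9 to 19 with each array left out in turn. The replicate block left the members' acute count at 0. Median scaling set the median of all genes at 0.14 in the acute and 0.40 in the withdrawal comparison, against which Nox4 (0.30) and Abca8a (0.31) in T3 withdrawal are to be read. It turned the Ddah1 acute value to 0.014, Ddah2 to 0.105 and Lsr to 0.011. With each array left out in turn, Ddah2 ran from -0.222 to 0.022 and Lsr from -0.407 to 0.375, and without both dim arrays they were 0.089 and 0.209. All of these values were uncalled, and the cause of each change was not tested. Signals near background limit Olig1, Abca9, Ncf4, Rac2, Aqp4, Fgb and Fcgr1, and 3 arrays a group limit all of them.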
